A study of Homo sapiens with 6 samples.

Results

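The transcripts of A172 cells given a miR-324-5p duplex were compared with those of A172 cells given a control miRNA, across all genes measured. The comparison rests on 4 of the 6 libraries of the series, the 2 labelled miR-324-5p duplex (5p duplex) and the 2 labelled control miRNA. The remaining 2 libraries, labelled miR-324-3p.1 duplex (3p.1 duplex), entered the same model and serve as a second transfected group. A172 is an established human glioblastoma line. All groups were lipid transfected and harvested after 1 day, and polyadenylated RNA was read as 100 bp pairs. The control's sequence and the doses were not given in the sources used here, no untransfected group was analysed, and nothing in the labels says that the libraries of a group came from separate cultures. The p-values therefore measure the spread between these samples, which may be technical. Of 20979 gene symbols listed, 13400 had a mean of at least 1 TPM (a relative abundance corrected for transcript length and for library size) over the 6 libraries and were tested.

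The miR-324 hairpin is cut into a pair of mature strands, the 5p arm and the 3p arm, and a cell can load either into an Argonaute protein. A loaded microRNA pairs through its seed, the bases near its 5′ end, with short matching stretches in messenger RNAs, mostly in the 3′UTR. Pairing leads to deadenylation, decay and reduced translation of the message. An 8mer site matches the whole seed and has an A opposite base 1, a 7mer-m8 lacks that A, a 7mer-A1 has the A but lacks the match to base 8, and a 6mer has neither. Stronger classes of site are known to lower messages more, on average. The identity of the strand that was loaded was not measured, and neither was the level of the microRNA.

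The mature miR-324-5p strand and the sites of genes that fell are shown because the fold changes below were read against them. The microRNA sequence is that of RefSeq (GRCh38.p14, chr17:7223343-7223364, minus strand), with the seed, bases 2 to 8, in capitals. The other sequences are 30-base windows of annotated 3′UTRs (GENCODE 29 on GRCh38), written 5′ to 3′ on the strand of the gene, with the bases of the site in capitals.
hsa-miR-324-5p: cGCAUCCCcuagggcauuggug
VDAC1, 8mer, chr5:133972674-133972703, minus strand: tcttttaatgttgtatgtctGGGATGCAag
DRAM1, 8mer, chr12:101921336-101921365, plus strand: ttgaggccaccctgattattGGGATGCAtc
AGTRAP, 8mer, chr1:11750647-11750676, plus strand: gcctggtcacatggtgcctaGGGATGCAgg
TMEM141, 8mer, chr9:136793055-136793084, plus strand: tgtttctcctctagggtattGGGATGCAtg
CUEDC2, 8mer, chr10:102423370-102423399, minus strand: ttctaggctcagatcccagaGGGATGCAgg
ARF3, 8mer, chr12:48937514-48937543, minus strand: aagtggttgtcagtgcttgtGGGATGCAgt
S100A16, 7mer-m8, chr1:153606911-153606940, minus strand: ttgtatcccctggtccctctGGGATGCtca
SCD, 7mer-m8, chr10:100362095-100362124, plus strand: aaggagaggaggaattagttGGGATGCcaa
AXL, 7mer-m8, chr19:41261596-41261625, plus strand: caagcctgtgcaatgcattaGGGATGCctc
WASF2, first of 3 sites, 7mer-m8, chr1:27407621-27407650, minus strand: gctaagcgatctctatgcctGGGATGCcct
PLPP1, first site, 7mer-A1, chr5:55425130-55425159, minus strand: aatgattgccacaaggcaagaGGATGCAtc
PLPP1, second site, 7mer-A1, chr5:55425069-55425098, minus strand: tctgctgctgctatgcctcttGGATGCAca
LIPA, 7mer-A1, chr10:89213870-89213899, minus strand: aagtgtgaacgtgatgttttcGGATGCAaa

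The median difference between libraries of a group was 0.129 to 0.167 on the log2(TPM + 1) scale. VIM, from the list of glial and glioma markers, had 4788 to 5910 TPM over the 6 libraries. That was most of the list's summed level, which was 5830 to 6870 TPM by library. Of the 14 members of that list 8 passed the minimum, with medians of 45.6 to 63.5 TPM by library, and 2 were not listed in any library. All 11 fibroblast or mural markers passed the minimum, so these lists do not by themselves mark the cells as glial. Of the 34 marker genes of the glial, neuronal, epithelial, blood or endothelial, and fibroblast or mural lists that passed the minimum, 0 were called by limma with an adjusted p under 0.05, and 5 had an unadjusted p under 0.05. Over all genes tested, 1227 (9.16%) had an unadjusted p under 0.05, the share to set beside such counts here and below.

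With the 5p duplex, 57 genes fell and 5 rose (limma, Benjamini-Hochberg adjusted p under 0.05, two-sided). These were 0.425% and 0.0373% of the genes tested. The falls included abundant messages: 20 of the 57 genes had a control mean over 100 TPM. Among the 57, the median level with the 5p duplex was 46.7% of the control mean, 8 genes were under 25% of it and 18 were above 50%. In all 57 both 5p duplex libraries lay below both control libraries, an arrangement found in 22.1% of all genes tested. Over all genes the median log2 fold change was -0.03, and 57.2% of genes lay below 0.

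**Figure D1:**
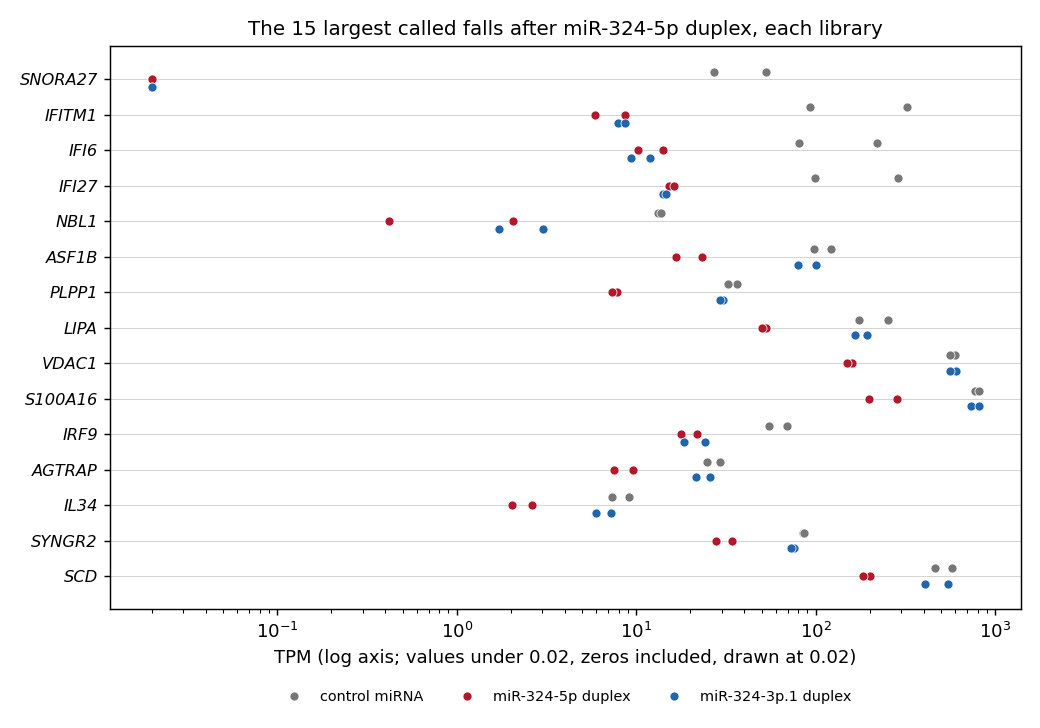
TPM in each library (log axis) of the 15 genes with the largest called falls and a mean of at least 5 TPM, with 2 points per group for control miRNA, miR-324-5p duplex and miR-324-3p.1 duplex. SNORA27, IFITM1, IFI6, IFI27, NBL1 and IRF9 are low with both duplexes, and for the other 9 genes the 3p.1 duplex points lie near the control points.

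The genes that fell are given by their roles, not in order of size. VDAC1, a pore through which metabolites cross the outer mitochondrial membrane, had 597 and 561 TPM in the controls, 159 and 149 TPM with the 5p duplex, and 604 and 559 TPM with the 3p.1 duplex. The controls and the 3p.1 duplex libraries thus spanned the same range, and the 5p duplex libraries lay at 26.6% of the control mean. The log2 fold change was -1.90 (SE 0.0897, adjusted p = 0.00256, limma) against control and -1.91 (adjusted p = 0.00256) against the 3p.1 duplex. Of the 24 tested genes of the mitochondrial outer membrane list it was the 1 that fell, and the list's median was 0.016. This list and those below were chosen with earlier results of these data known. That a list holds a called gene is therefore no finding, and 0.425% of all genes tested were called lower.

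PLPP1 removes phosphate from lipid phosphates such as lysophosphatidic acid. It had 36.7 and 32.7 TPM in the controls, 7.78 and 7.34 TPM with the 5p duplex, and 30.5 and 29.2 TPM with the 3p.1 duplex. Its log2 fold change was -2.06 (SE 0.106, adjusted p = 0.0029, limma) against control and -1.85 (adjusted p = 0.00561) against the 3p.1 duplex. PLPP1 carries its 2 sites 67 and 128 nt past the stop codon, in a 3′UTR of 352 nt. Of 22 tested genes of phospholipid phosphatases and lipid remodelling it was the 1 called, with 17 of them below 0 and a median of -0.147. LIPA, the lysosomal lipase that releases cholesterol and fatty acids from lipoprotein lipids, stood at 175 and 253 TPM, then 52.96 and 50.2 TPM with the 5p duplex, and 165 and 193 TPM with the 3p.1 duplex. The control libraries of LIPA differed more than those of VDAC1, and the fall (log2 -2.01, adjusted p = 0.0183) was also called against the 3p.1 duplex (-1.77, adjusted p = 0.0252). It was the 1 gene called of 27 lysosomal hydrolase and lipid transfer genes, whose median was -0.005.

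SREBF2 encodes the transcription factor that switches on cholesterol synthesis. It had 29.04 and 31.3 TPM in the controls, 12.4 and 12.6 TPM with the 5p duplex, and 23.9 and 27.6 TPM with the 3p.1 duplex. SCD, which makes monounsaturated fatty acids, stood at 462 and 573 TPM, 200 and 183 TPM, and 406 and 547 TPM in the same order. Both fell against control (log2 -1.21 and -1.42, adjusted p = 0.0189 and 0.0376, limma) and against the 3p.1 duplex (-0.98 and -1.29, adjusted p = 0.0325 and 0.0482). They were the 2 genes called of 20 in the list of SREBP regulators and fatty acid synthesis, whose median was -0.072. None of the 22 tested enzymes of cholesterol synthesis itself was called, 6 had an unadjusted p under 0.05, 20 lay below 0 and none carried a 7mer or 8mer site. Their median was -0.194 against control and -0.068 against the 3p.1 duplex. HMGCS1, an early enzyme of the pathway, had 55.3 and 62.4 TPM in the controls, against 40.6 and 39.0 TPM with the 5p duplex (log2 fold change -0.55, adjusted p = 0.0967). With the 3p.1 duplex it had 46.9 and 49.1 TPM, and the difference between the duplexes was -0.26 (adjusted p = 0.475, limma).

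Other mitochondrial and energy genes were among the falls. HSPD1, the chaperonin of the mitochondrial matrix, had 977 and 1105 TPM in the controls, 485 and 474 TPM with the 5p duplex, and 1112 and 1204 TPM with the 3p.1 duplex. Its log2 fold change was -1.12 (adjusted p = 0.0183, limma), and -1.27 against the 3p.1 duplex (adjusted p = 0.0192). Its annotated 3′UTR of 465 nt holds no match to the seed of 6 bases or more. GPD2, the mitochondrial glycerol-3-phosphate dehydrogenase, has a 7mer-m8 and had 30.5 and 31.4 TPM in the controls, 14 and 12.5 TPM with the 5p duplex, and 35.9 and 31.0 TPM with the 3p.1 duplex. The log2 fold change of GPD2 was -1.17 (adjusted p = 0.0216). SLC16A1, which carries lactate and pyruvate across the plasma membrane, has 2 sites and stood at 78.6 and 86.9 TPM, then 44.3 and 44.0 TPM (log2 -0.89, adjusted p = 0.0251).

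NDUFA8 and NDUFAB1 encode subunits of respiratory complex I, and NDUFAB1 is also the mitochondrial acyl carrier protein. NDUFA8 had 219 and 215 TPM in the controls, against 118 and 130 TPM with the 5p duplex. NDUFAB1 stood at 395 and 373 TPM and then at 218 and 206 TPM. Both fell (log2 -0.80 and -0.85, adjusted p = 0.0251 and 0.0489, limma) and neither 3′UTR holds a seed match. DNAJC11, a mitochondrial membrane protein with an 8mer, and COA4, an assembly factor of cytochrome c oxidase with a 7mer-m8, were at -0.80 and -0.74 on the log2 fold change scale (adjusted p = 0.0489 for each). Neither complex I gene belongs to the list of oxidative phosphorylation genes, of which 0 of 33 were called, 0 had an unadjusted p under 0.05, and the median was -0.014.

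AXL, a receptor tyrosine kinase that binds GAS6, had 381 and 457 TPM in the controls, 167 and 197 TPM with the 5p duplex, and 439 and 460 TPM with the 3p.1 duplex. The fall was -1.20 (adjusted p = 0.0251, limma), and -1.30 against the 3p.1 duplex (adjusted p = 0.0242). AXL was the 1 gene called of 20 receptor tyrosine kinases. The next by p-value, PDGFRB and DDR1, were at -0.77 and -0.75 on the log2 fold change scale (adjusted p = 0.0636 for each). Against the 3p.1 duplex PDGFRB and DDR1 were at -0.36 and -0.45 (adjusted p = 0.375 and 0.255, limma).

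S100A16, a calcium-binding protein gene, had 770 and 815 TPM in the controls, 199 and 283 TPM with the 5p duplex, and 732 and 813 TPM with the 3p.1 duplex (log2 fold change -1.73 against control, adjusted p = 0.0216, limma). Its 10 tested relatives in the S100 list were not called, and the list's median was 0.036. ARF3, a small GTPase of the Golgi, stood at 130 and 117 TPM, 46.1 and 51.0 TPM, and 105 and 121 TPM in the 3 groups (log2 -1.33, adjusted p = 0.0169). It was the 1 of 19 ARF and ARL genes called, and 14 of them lay below 0. AGTRAP, which binds the angiotensin receptor, stood at 29.2 and 24.9 TPM, 7.51 and 9.58 TPM, and 26.0 and 21.7 TPM (log2 -1.56, adjusted p = 0.0251).

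WASF2 belongs to the complex that starts branched actin filaments, and it has 3 sites in 3963 nt of 3′UTR. It had 49.3 and 54.9 TPM in the controls, 21.5 and 20.9 TPM with the 5p duplex, and 51.8 and 52.7 TPM with the 3p.1 duplex. KCTD20, also with 3 sites, stood at 63.0 and 73.7 TPM, then 29.2 and 29.8 TPM, and 66.8 and 75.1 TPM. Both differed from control (log2 -1.26 and -1.18, adjusted p = 0.0135 and 0.0216, limma) and from the 3p.1 duplex (-1.26 and -1.24, adjusted p = 0.0183 and 0.0227). DRAM1, a lysosomal membrane protein that takes part in autophagy, had 49.96 and 50.7 TPM in the controls, against 23.4 and 18.4 TPM with the 5p duplex (log2 fold change -1.24, adjusted p = 0.0251). VPS25 and VPS37B, subunits of the ESCRT complexes that sort membrane proteins into endosomal vesicles, were at -1.08 and -0.95 on the log2 fold change scale (adjusted p = 0.0149 and 0.0498). VPS37B has 2 sites and VPS25 has none.

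Nuclear regulators and a secreted ligand were also among the falls. ASF1B, a histone H3-H4 chaperone, had 98.4 and 121 TPM in the controls, 16.7 and 23.2 TPM with the 5p duplex, and 79.3 and 100 TPM with the 3p.1 duplex. The log2 fold change was -2.41 (SE 0.197, adjusted p = 0.0151, limma), and -2.13 against the 3p.1 duplex (adjusted p = 0.0227). Its 3′UTR of 950 nt holds a 6mer and no longer match, and its annotated 5′UTR holds an 8mer. Of 22 histone chaperone genes it was the 1 called, and their median was -0.026. RAN, the GTPase that drives nuclear transport, has a 7mer-m8 and had 467 and 499 TPM in the controls, against 260 and 261 TPM with the 5p duplex (log2 fold change -0.89, adjusted p = 0.0189). XBP1, which turns on genes of the unfolded protein response, was not called against the 3p.1 duplex (log2 -1.06 against control, adjusted p = 0.0499, and -0.89 against the 3p.1 duplex, adjusted p = 0.103). IL34, a ligand of the CSF1 receptor, likewise was called against control (-1.48, adjusted p = 0.0335) and not against the 3p.1 duplex (-1.19, adjusted p = 0.0685).

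The difference between the 2 duplexes was tested in the same model. Over all genes, 47 (0.351%) were lower with the 5p duplex than with the 3p.1 duplex. Of the 57 genes lowered against control, 38 were also lower than the 3p.1 duplex, 19 were not called, and 51 lay below both 3p.1 duplex libraries. Both tests use the same 5p duplex libraries and are not independent. In the 3p.1 duplex libraries the 57 genes had a median of 92.0% of the control mean, and 45 of them were within 80% to 120% of it.

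**Figure D2:**
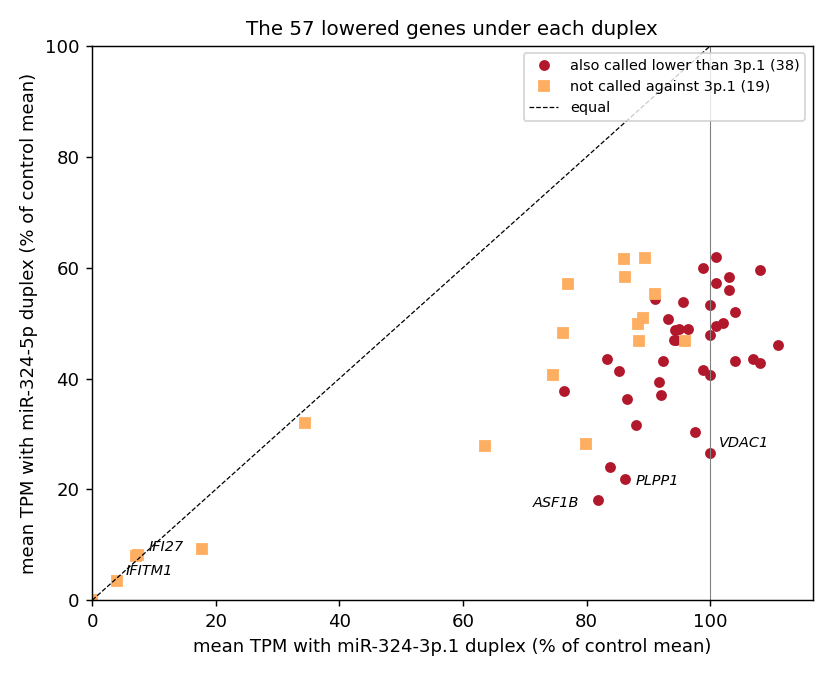
Mean TPM as a percentage of the control mean for the 57 lowered genes, with the 3p.1 duplex on the horizontal axis and the 5p duplex on the vertical axis. The 38 genes also called lower than the 3p.1 duplex (circles) sit right of the dashed line of equal levels, and IFITM1 and IFI27 sit near it among the 19 others (squares).

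Some of the 57 also stood far below the controls with the 3p.1 duplex. The largest of these falls, apart from SNORA27, were in interferon-stimulated genes, which cells switch on when they sense foreign RNA. IFITM1, which blocks virus entry, had 92.8 and 321 TPM in the controls, 8.67 and 5.92 TPM with the 5p duplex, and 7.95 and 8.69 TPM with the 3p.1 duplex. IRF9, a subunit of the factor that interferon activates, stood at 55.2 and 69.2 TPM, then 21.9 and 17.9 TPM, and 24.3 and 18.4 TPM. The differences between the duplexes were -0.19 and -0.09 (adjusted p = 0.962 and 0.943, limma). Reads of IFITM1 may be split with its close paralogs, which makes its level uncertain.

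Of 46 tested interferon response genes, 4 fell against control (IRF9, IFITM1, IFI6 and IFI27) and 44 had an unadjusted p under 0.05. The median was -2.014 against control, where the median of all genes was -0.03. It was -0.045 between the 5p and the 3p.1 duplex, where 0 of the 46 were called. The list's summed level was 4150 and 8720 TPM in the controls, 2130 and 2170 TPM with the 5p duplex, and 2150 and 2070 TPM with the 3p.1 duplex. The controls therefore differed from each other by more than the libraries with a duplex did. Without untransfected cells, a rise in the controls and a fall with the duplexes cannot be told apart. Without control replicate 1 the calls in the list numbered 39, without control replicate 2 they numbered 6, and without any 1 of the duplex libraries they numbered 0. Among 13 RNA sensors and adaptors 0 were called, 5 had an unadjusted p under 0.05 and the median was -0.329, with DHX58 at -1.62 (adjusted p = 0.0914). Between the 5p and the 3p.1 duplex the median of these 13 was 0.081, and DHX58 was at 0.09 (adjusted p = 0.971, limma). A fall of a transcript in such bulk samples does not separate fewer expressing cells from less RNA per cell.

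**Figure D3:**
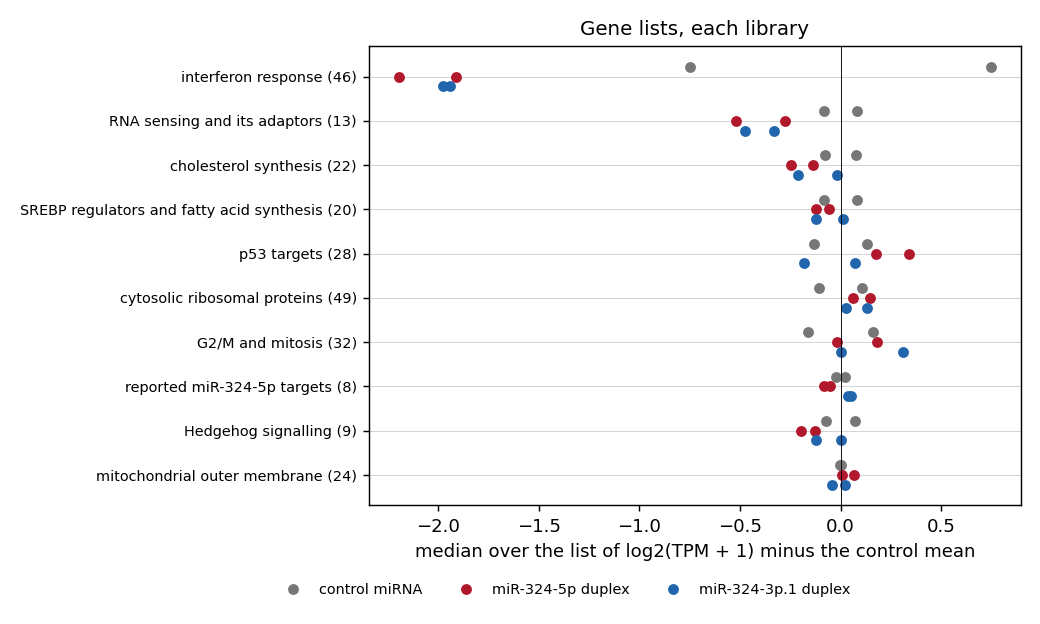
For 10 gene lists, the median over tested members of log2(TPM + 1) minus the control mean, in each library (2 points per group, number of genes in brackets). The interferon points of both duplexes lie between -1.9 and -2.2 and the controls at -0.747 and 0.747, and the p53 points of the 5p duplex lie right of both controls.

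The rises were few. STK38L, a kinase of the Hippo family, had 12.02 and 11.7 TPM in the controls, 27.7 and 23.5 TPM with the 5p duplex, and 24.98 and 23.97 TPM with the 3p.1 duplex. LRIG1, which restrains growth factor receptors, stood at 20.3 and 23.2 TPM, then 41.7 and 38.4 TPM, and 45.6 and 43.0 TPM. Both were called against control (log2 1.04 and 0.85, adjusted p = 0.027 and 0.046, limma), and the differences between the duplexes were 0.06 and -0.14 (adjusted p = 0.944 and 0.784). When 1 library was left out, their log2 fold changes ran from 0.93 to 1.16 and from 0.76 to 0.94, and neither kept its call. The other three were MINOS1-NBL1, a read-through transcript that overlaps NBL1 so that the split of reads between them is uncertain, and the small RNA genes SNORA29 and RNU4-1. In the 5p duplex libraries SNORA29 had 12.3 and 17.1 TPM, and RNU4-1 had 9.87 and 6.93 TPM. Neither was listed in the other 4 libraries, where they count as 0 and have no spread. Their p-values, and the calls they keep when 1 library is left out, rest partly on those zeros. SNORA27 showed another arrangement, listed in the controls at 53.1 and 27.0 TPM and in none of the remaining 4 libraries. Selection on poly(A) is not made for such RNAs.

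Among lists with positive medians, the p53 targets stood highest. None of 28 was called, and 3 had an unadjusted p under 0.05, as did 9.16% of all genes tested. Of the 28, 25 lay above 0, and the median was 0.269 against control and 0.355 against the 3p.1 duplex. Library medians were 0.338 and 0.176 with the 5p duplex, 0.133 and -0.133 in the controls, and 0.071 and -0.18 with the 3p.1 duplex. The 5p duplex libraries thus lay above all the others. Between libraries of the same replicate number, 5p duplex minus control was 0.205 and 0.309. BTG2, which slows proliferation, had 20.1 and 12.6 TPM in the controls, 29.2 and 24.7 TPM with the 5p duplex, and 14.1 and 9.86 TPM with the 3p.1 duplex (log2 fold change 0.72, adjusted p = 0.435). CDKN1A, the p21 inhibitor of cyclin-dependent kinases, stood at 303 and 189 TPM, then 398 and 347 TPM, and 261 and 178 TPM (log2 0.63, adjusted p = 0.546). Replicate 1 was the higher library for both genes in each group. The ribosomal protein genes (49, with 0 called and 0 at an unadjusted p under 0.05) had a median of 0.095, which was -0.006 without control replicate 2. The mitotic genes (32, with 0 called and 1 at an unadjusted p under 0.05) had a median of 0.08, which was -0.081 without control replicate 1.

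The 3′UTR sites were then set against the fold changes of all genes. A 3′UTR was annotated for 12004 of the genes tested, with a median length of 1379 nt. The motifs searched on the strand of the message were GGGATGCA (8mer), GGGATGC (7mer-m8), GGATGCA (7mer-A1) and GGATGC (6mer), and each gene was put in the strongest class it held. The median log2 fold change was -0.135 for 338 genes with an 8mer, -0.088 for 729 with a 7mer-m8, -0.048 for 679 with a 7mer-A1, -0.054 for 1242 with a 6mer and -0.021 for 9016 with none. In the same order 76.0%, 68.3%, 61.4%, 61.8% and 55.3% of the genes lay below 0. The 6mer median lay slightly below that of the 7mer-A1, and both were nearer to the genes without a site than to the 8mer genes.

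**Figure D4:**
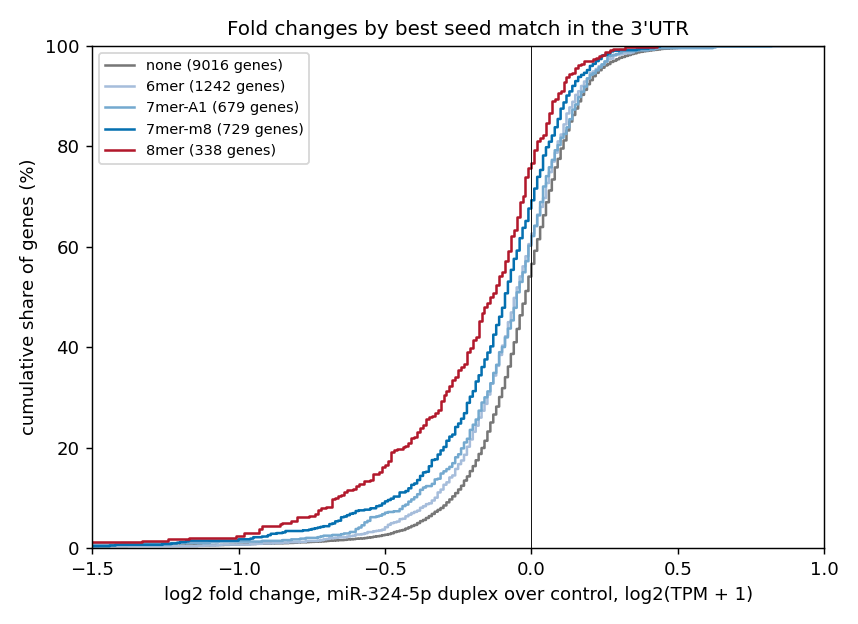
Cumulative share of genes (%) against log2 fold change, 5p duplex over control, for genes grouped by their strongest seed match in the 3′UTR; fold changes outside -1.5 to 1 are not drawn. The 8mer curve lies furthest left, with 76.0% of its genes below 0 against 55.3% of the genes with no site.

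For the 1067 genes with an 8mer or 7mer-m8, the median differed from that of genes without a site by -0.076. By library this shift was -0.109 and -0.0698 with the 5p duplex, -0.0378 and 0.0074 with the 3p.1 duplex, and -0.0257 and 0.0257 in the controls. Both 5p duplex libraries were lower than the other 4. With 2 libraries a group the smallest two-sided p of an exact permutation test is 0.333, so the shift was not tested. The share of genes called lower was 12 of 338 with an 8mer, 17 of 729 with a 7mer-m8, 5 of 679 with a 7mer-A1, 7 of 1242 with a 6mer and 15 of 9016 with none.

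Of the 56 lowered genes with an annotated 3′UTR, 34 (60.7%) held a 7mer or 8mer, against 14.3% of the 11948 other genes. Without control replicate 1 the share was 33.6% (39 of 116 lowered genes), and without 5p duplex replicate 1 it was 100.0% (2 of 2). At least 2 such sites were held by 12 of the 56 (21.4%), against 2.5% of the others. Among lowered genes also called against the 3p.1 duplex, 28 of 38 (73.7%) held a site, and among those not called against it, 6 of 18 (33.3%). The lowered genes with no more than a 6mer included ASF1B, IL34, XBP1, UBE2O, YWHAG and ZBED1, and those with no match included the interferon genes and HSPD1, VPS25, NDUFA8 and NDUFAB1. ZBED1 holds an 8mer in its coding sequence, and ASF1B holds one in its annotated 5′UTR. The 230 genes with a 5′UTR 8mer or 7mer-m8 and no 3′UTR match of any class had a median of -0.044, and 0 of them were called lower. Coding matches alone went with small differences: 915 genes with a coding 8mer or 7mer-m8 and no 3′UTR match of any class had a median of -0.04, and 0 of them were called lower.

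The fold changes were also set against the number of sites and their setting. Medians were -0.075 for 1441 genes with 1 site of a 7mer or 8mer class, -0.086 for 245 with 2 and -0.144 for 60 with at least 3. Median 3′UTR lengths were 2673, 4450 and 7040 nt, so site number was not separated from length. By library the shifts from genes without a site were -0.0703, -0.1045 and -0.1934, and -0.0509, -0.07 and -0.0783 with the 5p duplex. With the 3p.1 duplex they had the same order, at -0.0221, -0.0558 and -0.0871, and 0.0163, 0.0041 and -0.0155. Control replicate 1 had that order too, and control replicate 2 the reverse. Of genes with a single 8mer, the 31 in 3′UTRs of at most 1000 nt had a median of -0.332, the 100 in 3′UTRs over 1000 and up to 3000 nt had -0.172, and the 106 in longer ones had -0.059. Below 0 lay 90.3%, 81.0% and 63.2% of them, and 4, 2 and 2 genes were called lower. The medians had the same order for a single 7mer-m8 (-0.135, -0.106 and -0.047) and not for a single 7mer-A1 (-0.078, -0.083 and -0.002). Relative to genes without a site, the 7mer-m8 shifts were -0.2606, -0.1278 and -0.021 in 5p duplex replicate 1. In 5p duplex replicate 2 they were -0.0584, -0.0599 and -0.0471 and did not keep that order. By position, the median was -0.205 for 83 single 8mers within 300 nt of a 3′UTR end and -0.091 for the 154 others. The median 3′UTR lengths of these groups were 1521 and 3351 nt, so position was not separated from length. For single 8mers, an A or T content of the flanks of at least 55% went with a median of -0.117, and one under 45% with -0.108. The order of these groups differed between the 5p duplex libraries. The shifts from genes without a site were -0.1007 and -0.1604 in replicate 1, and -0.1629 and -0.0529 in replicate 2.

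**Figure D5:**
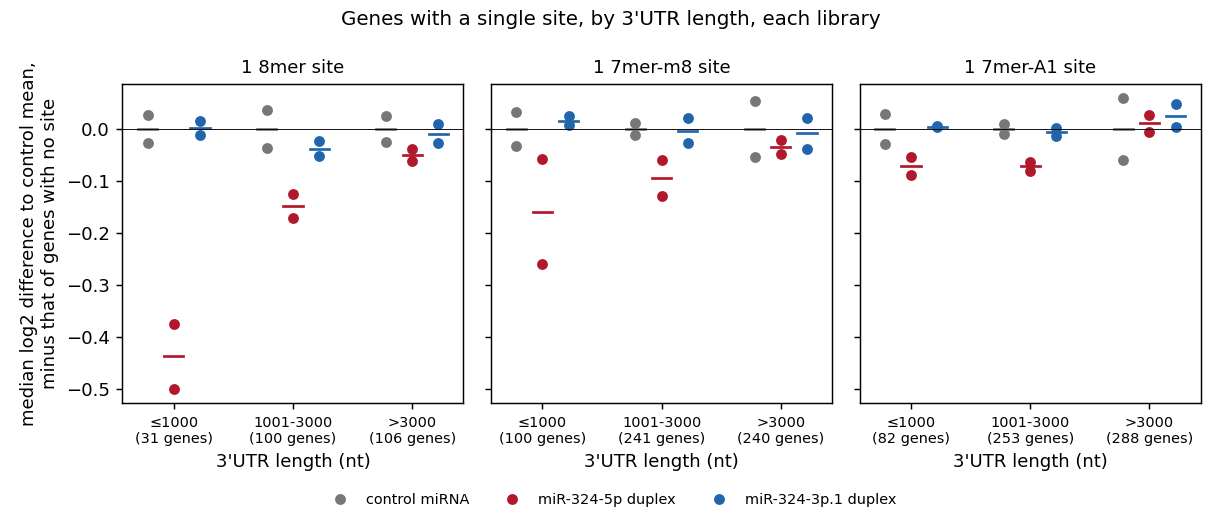
Median log2 difference to the control mean, minus that of genes with no site, for genes with a single 8mer, 7mer-m8 or 7mer-A1, by 3′UTR length, in each library (points; bars are group means). The 8mer genes with 3′UTRs of at most 1000 nt lie at -0.4998 and -0.374 in the 5p duplex libraries and within 0.03 of 0 in the other 4.

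Relative to genes without a site, the shift of the single 8mer genes was -0.311 in the shortest 3′UTRs, and it ran from -0.353 to -0.5 when a control or 5p duplex library was left out. It was -0.166 with no filter on low values, an alternative chosen after seeing the data. In the longest it was -0.039, -0.094 without control replicate 1 and 0.002 without control replicate 2. The longest annotated 3′UTR of each gene was used, and the form made in A172 cells was not measured. SREBF2 shows the limit: its 7mer-m8 lies 35 nt past the stop codon of 1 annotated transcript, and its 7mer-A1 is 2117 nt past it.

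Single genes with an 8mer varied. Of the 338, 12 (3.55%) were called lower, against 0.425% of all genes tested, 326 were not called and 81 lay above 0. Among the most abundant, YWHAZ, a 14-3-3 protein gene, had 1171 and 1097 TPM in the controls, against 1283 and 1139 TPM with the 5p duplex (log2 fold change 0.09, adjusted p = 0.864, limma). NAP1L1, a histone chaperone gene, stood at 877 and 977 TPM, then at 962 and 899 TPM (0.01, adjusted p = 0.994). KRT8, a keratin gene, and SRP9, of the signal recognition particle, were at -0.36 and -0.23 on the log2 fold change scale (adjusted p = 0.778 and 0.685), and for SRP9 both 5p duplex libraries lay below both controls. VDAC1 was the 1 called gene among the 10 most abundant genes with an 8mer, and the log2 fold changes of the other 9 ran from -0.36 to 0.09, with 6 below 0. RBL1, a relative of the retinoblastoma protein, held 7 sites, the most of any gene tested, and had 12.96 and 18.5 TPM in the controls, against 8.94 and 8.90 TPM with the 5p duplex (log2 fold change -0.73, adjusted p = 0.18). MGAT3, a glycosyltransferase gene, and DYNLL2, a dynein light chain gene, were at -0.93 and -0.52 (adjusted p = 0.0753 and 0.378), and CFLAR, an inhibitor of caspase-8, was at -0.05. Against the 3p.1 duplex MGAT3 and DYNLL2 were at -0.5 and -0.44 (adjusted p = 0.367 and 0.478, limma). None of the 10 genes with most sites was called, and 0.0 was the highest log2 fold change among them.

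OAS1, an interferon-induced sensor of double-stranded RNA, holds an 8mer, and its log2 fold change of -4.01 (adjusted p = 0.0659) was the lowest of all 338. The difference between the 2 duplexes was not called (adjusted p = 0.981).

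Genes recalled from the literature as targets of miR-324-5p gave 1 call of 8 tested, with a median of -0.064. CUEDC2, which acts in NF-kB and hormone receptor signalling, had 137 and 117 TPM in the controls, 65.6 and 66.3 TPM with the 5p duplex, and 138 and 126 TPM with the 3p.1 duplex. Its 8mer lies in a 3′UTR of 181 nt, and it fell against control (-0.93, adjusted p = 0.0326, limma) and against the 3p.1 duplex (-0.99, adjusted p = 0.0292). FBXO11, a ubiquitin ligase subunit with an 8mer, stood at 53.6 and 57.2 TPM, then 44.3 and 39.1 TPM (-0.40, adjusted p = 0.217). SMO, the membrane protein that passes on the Hedgehog signal, had 19.2 and 17.6 TPM in the controls, against 17.9 and 17.0 TPM with the 5p duplex, ranges that overlap (-0.07, adjusted p = 0.898). Of 9 tested Hedgehog genes 0 were called, 2 had an unadjusted p under 0.05 and 8 lay below 0. GLI1 stayed under the minimum for testing, at 0.71 to 1.36 TPM over the 6 libraries.

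Genes of the microRNA machinery were not called (0 of 17, with 0 at an unadjusted p under 0.05 and a median of 0.07). ZCCHC11 and ZCCHC6, the symbols in the files for the uridylyl transferases TUT4 and TUT7 that add uridines to microRNA precursors, were at 0.09 and 0.17 on the log2 fold change scale (adjusted p = 0.897 and 0.748, limma). DICER1, which cuts the hairpin, was at 0.11 (adjusted p = 0.881). TGFBR2, the type II TGF-beta receptor, had the smallest p-value among uncalled genes of the TGF-beta and YAP list (-0.64, adjusted p = 0.0586). AXL, also in that list, was its 1 call of 24.

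The calls depended on the libraries used. SREBF2, SCD, AXL, HSPD1, GPD2, DRAM1, AGTRAP, KCTD20, SLC16A1, RAN, XBP1, IRF9 and CUEDC2 lost theirs in most fits that left out 1 library. Leaving out control replicate 1 kept 37 of the 62 calls, control replicate 2 kept 12, 5p duplex replicate 1 kept 4, 5p duplex replicate 2 kept 11, and either 3p.1 duplex library kept 12. VDAC1, PLPP1, SNORA29 and RNU4-1 were called in all 6 of these fits, and 24 genes in none. C6orf62 and SNORA27 lost the call without 5p duplex replicate 1, LIPA and WASF2 without either 5p duplex library, ASF1B and SYNGR2 when control replicate 2 or 5p duplex replicate 1 was left out, and ARF3 without any of these 3. MINOS1-NBL1 lost it in the same fits as ARF3. Among the genes that kept the call in none of the fits were IL34, NDUFA8, NDUFAB1, DNAJC11, COA4, VPS37B, STK38L and LRIG1. S100A16 and TMEM141 were called when control replicate 1 or 5p duplex replicate 2 was left out and in no other fit, and VPS25, IFITM1, IFI6 and IFI27 kept it without either control library and lost it without any duplex library. Of the 20 genes called in 1 fit, 19 were called without control replicate 1, and NBL1 without 5p duplex replicate 2.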

How the data were processed

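TPM values per gene symbol were deposited by the authors, 1 list a library, and per the submitters' processing notes RSEM and GRCh38 were used. Versions, aligner and annotation: not given in the sources used here. TPM keeps no read number, so depth is unknown and no count test was possible. Repeated symbols were summed and unlisted symbols taken as 0. Values were analysed as log2(TPM + 1), which understates changes of low genes, for genes whose mean reached 1 TPM. One model of group means over all 6 libraries was fitted with limma 3.58.1 in R 4.3.3 (variance trend, 3 residual and 3.38 prior degrees of freedom) and adjusted over all 13400 genes at 0.05, two-sided. The script was checked on simulated data. Symbols were matched to GENCODE 29 (12636 by symbol, 320 by an older symbol, 444 not matched), and sites sought in the longest 3′UTR of protein-coding transcripts. Every called gene could be named, as could list members with the smallest p, abundant 8mer genes and genes with most sites. SMO, GLI1, the TUT genes, DICER1 and AGO2 were fixed (AGO2 had a log2 fold change of -0.00, adjusted p = 1.0). The comparison, lists and rules were chosen with earlier results of these data known. Lists have no test. The grouping of single sites by 3′UTR length, position and flanks was chosen after seeing the data. Alternatives were pseudocounts, filters, scalings, subsets of libraries and a replicate block.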

Additional observations from a re-analysis of the deposited data

How the results depend on the processing

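Against control, 62 genes were called, 57 lower. The count was 60 with a pseudocount of 0.1 TPM, 44 with 5 TPM, 83 among genes whose mean reached 5 TPM, 43 with quantile normalization and 45 with median ratio scaling. Without the filter it was 9, from the 4 libraries of the groups compared alone 11, and with no variance trend 33. Leaving out 1 library gave 7 to 128. The 58 genes that differed between the duplexes became 57, 45, 58, 43 and 54 under the first 5 of these settings, 5 with no filter, 19 with only 4 libraries and 5 with no variance trend, and leaving out 1 library gave 7 to 26. Where 1 library of a group is left, it is assumed to vary like the others. The cause of these shifts was not tested.

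A replicate block, a term for the replicate number, gave 367 calls against control (326 lower, with all 62 among them) and 278 between the duplexes. The labels tie the number to no shared culture or day. Differences between replicates 1 and 2 correlated across genes at 0.265 between control and 5p duplex, 0.375 between control and 3p.1 duplex and 0.383 between the duplexes. With 2 numbers, whether they pair the libraries could not be settled. With the block, 47.2% of 309 lowered genes held a 7mer or 8mer.

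The site shift of -0.076 ran from -0.048 with no filter to -0.109 without 5p duplex replicate 2, -0.058 with any annotated 3′UTR, and -0.065 to -0.109 when a library was left out. Of 51 called genes named or plotted, 41 kept the call with a pseudocount of 5 TPM and 41 with quantile normalization, and none turned. Among genes not called, NAP1L1 turned to -0.04 with quantile normalization and ran from -0.07 to 0.08, and CFLAR from -0.23 to 0.13. ZCCHC11 ran from -0.02 to 0.21 and DICER1 from -0.05 to 0.28. AGO2, at -0.00, was 0.0 with a pseudocount of 0.1 TPM, 0.09 with quantile normalization and -0.39 to 0.38 when a library was left out. With no depth given, low genes have no counting error here.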

Other observations

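Other gene lists showed few calls with the 5p duplex against control (limma, adjusted p under 0.05). An unadjusted p under 0.05 was found in 9.16% of all genes tested. Of 30 G1/S and DNA replication genes 0 were called, 5 had an unadjusted p under 0.05 and 21 lay below 0, with a median of -0.055. Of 21 immediate early and MAPK feedback genes 0 were called and 4 had an unadjusted p under 0.05, with a median of -0.034. Of 25 Wnt genes 0 were called and 4 had an unadjusted p under 0.05, with a median of -0.089. Of 29 extracellular matrix and integrin genes 0 were called and 1 had an unadjusted p under 0.05, with 19 above 0 and a median of 0.056. Of 23 deadenylation and decapping genes 0 were called and 1 had an unadjusted p under 0.05, with a median of -0.063. Endoplasmic reticulum folding genes gave 1 call of 23, XBP1, and a median of 0.013.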
